A study of Homo sapiens with 6 samples.

Results

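The lysosome genes of HepG2 cells were taken as the rows of the deposited gene table whose pathway annotation listed the KEGG Lysosome pathway, leaving out SLC11A2, a metal ion transporter better known from iron uptake. This gave 120 of the 29153 genes in the table. A mean FPKM (read pairs scaled by transcript length and library size) of at least 0.5 over the 6 libraries was required for testing, and 105 of the 120 lysosome genes passed, of 13452 genes in all. HepG2 is an established liver cancer line. The study infected it with lentivirus carrying a control hairpin (shNC, called sh-NC here) or a hairpin against the long noncoding RNA LINC01977 (shLINC01977, titled sh3, called sh-LINC01977 here), and sequenced RNA 72 h later from 3 samples of each group. Both groups therefore carried a lentiviral hairpin, and infected cells were selected with puromycin by the study's general protocol. A single hairpin was titled for the knockdown, so its intended target and its other targets cannot be told apart, and nothing in the labels says that the 3 samples came from separate infections, so p-values measure the spread between these samples, which may be technical. The comparison asked which lysosome genes differed between the knockdown and the control.

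The lysosome is the acidic compartment in which cells break down proteins, sugars, lipids and nucleic acids delivered by endocytosis and autophagy. Its soluble enzymes are tagged with mannose 6-phosphate in the Golgi, bound by mannose 6-phosphate receptors and carried in vesicles coated with clathrin and the AP-1 adaptor, while a vacuolar proton pump (V-ATPase) acidifies the lumen and highly glycosylated membrane proteins protect its wall. In liver cells lysosomes also release cholesterol from lipoproteins taken up from blood, and many lysosome genes carry near their starts a palindrome recognised by the transcription factors TFEB and TFE3.

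Promoter sequences were searched for the inner letters of that palindrome and are given first. RefSeq promoters of GRCh38.p14, spanning 250 bases before to 50 bases after the annotated start, were matched by symbol for 89 of the 120 lysosome genes. The letters TCACGTGA, the inner 8 letters of the palindrome and identical on both strands, occurred in 11 of the 89 (12.4%), against 344 of all 35116 promoters in the table (0.98%) and 233 of the 12935 promoters of tested genes (1.8%). The shorter E-box CACGTG, which every TCACGTGA contains, occurred in 19 of the 89 (21.3%), against 7.26% of all promoters and 9.56% of those of tested genes. Only the first promoter entry under the symbol of each lysosome gene was searched, while the wider counts took every entry. The shares are thus per gene for lysosome genes and per promoter entry for the wider sets. The 11 genes held 17 copies of the longer word, and 1 copy is shown for each of 5 role classes, as 28 bases with the 8 letters in capitals, 5′ to 3′ on the gene's strand.
CTSA (protease, chr20:45891299-45891326, plus strand): gcgccggagtTCACGTGActcgtacaca
GAA (glycosidase, chr17:80101494-80101521, plus strand): ggaggccgcgTCACGTGAcccaccgcgg
LAMP1 (membrane protein, chr13:113297200-113297227, plus strand): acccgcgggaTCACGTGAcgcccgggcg
ATP6V0D1 (proton pump, chr16:67481200-67481227, minus strand): ccccttatggTCACGTGAggcgcttgcg
GNPTG (sorting, chr16:1351908-1351935, plus strand): gtccccgtggTCACGTGAccgtcacttc
Between the capitals and the annotated start lay 18 bases in CTSA, 69 in GAA, 21 in LAMP1, 52 in ATP6V0D1 and 5 in GNPTG. A sulfatase gene, GALNS, was the only one of the 17 called lysosome genes with a matched promoter that held the word, at 167 bases before its start, and its 250 bases before the start (chr16:88856948-88857197, minus strand) are therefore shown whole, with the same letters in capitals.
GALNS: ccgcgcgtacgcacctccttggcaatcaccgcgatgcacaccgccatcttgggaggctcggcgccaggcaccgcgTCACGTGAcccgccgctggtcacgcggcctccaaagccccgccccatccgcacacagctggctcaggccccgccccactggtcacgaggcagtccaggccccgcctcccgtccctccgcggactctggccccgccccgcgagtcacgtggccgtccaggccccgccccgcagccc
The other 10 genes with the word were CD164, CLN3, CTSA, GAA, GNPTG, IGF2R, LAMP1, MCOLN1, NAGPA and ATP6V0D1, and none of these 10 was called between groups by edgeR with all 6 libraries and TMM factors, while DESeq2 called CTSA and GAA, library totals and both limma fits called GAA, and edgeR without sh-NC replicate 1 called ATP6V0D1. Among genes with a matched promoter the word was present in 0 of 8 that were higher, 1 of 9 that were lower and 10 of 63 that were tested and not called. These matches describe letters in a window and do not show that a factor bound there.

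The 6 libraries held 49929024 to 60441515 counted reads each, and Pearson's r of log2(CPM + 1) across genes, which are not independent replicates, was 0.986 to 0.988 within groups and 0.978 to 0.980 across groups. LINC01977 itself was counted 4, 0 and 16 times in sh-NC and 0, 0 and 4 times in sh-LINC01977, too few reads to check the knockdown (edgeR adjusted p = 0.580), so the groups are those of the labels. Of the 7 hepatocyte markers ALB, APOA1, APOB, TTR, SERPINA1, TF and AFP, 5 were lower in the knockdown, and their summed level was 4368 to 4735 FPKM in sh-NC against 3091 to 3154 in sh-LINC01977. The summed level of 5 mesenchymal markers was 3.04 to 4.21 FPKM in sh-NC and 5.48 to 7.67 in sh-LINC01977, almost all of it COL1A1 (not called) and PDGFRB (higher), with VIM at 0.181 and 0.0615 on average, and that of 3 endothelial markers reached at most 0.441 in any library. The part of these shifts in the lysosome values was not tested, and in bulk RNA a change in the cells present and a change in RNA per cell cannot be told apart.

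Among the 105 tested lysosome genes, 13 rose and 10 fell after the LINC01977 hairpin (edgeR quasi-likelihood test, Benjamini-Hochberg adjusted p under 0.05 over all 13452 genes). The 13 made up 12.4% of those tested, against 7.05% of all genes tested that were higher, and the 10 made up 9.52%, against 8.07% of all genes that were lower. Most changes were small, with a median log2 fold change of 0.060 over the 105 genes and of -0.001 over all genes, and with 60 lysosome genes above 0 and 45 below. Only CTSE and LAPTM5 passed the thresholds of the study (a fold of at least 2 with an unadjusted P of at most 0.05), where 1.55% of all genes passed upward, and no lysosome gene passed downward, where 1.05% of all genes did. All 3 knockdown libraries lay above all 3 controls in 27 lysosome genes (25.7%, against 18.8% of all genes) and below them in 19 (18.1%, against 18.3%). The balance differed between settings. With library totals in place of TMM factors 24 lysosome genes were higher and 10 lower, and in limma on log2(FPKM + 0.1), which differs in test and input as well as scaling, 19 were higher and 6 lower. The share of lysosome calls that were higher was thus 56.5%, 70.6% and 76.0% in the 3 settings. Over all genes it was 46.6%, 65.5% and 63.5%, also larger in both alternatives than with TMM factors. Of all genes tested, 10.8% were higher and 5.71% lower with library totals, and 9.43% and 5.42% in limma. The count of 13 fell to between 5 and 11 when any 1 library was left out, lowest without sh-NC replicate 3, and the count of 10 to between 4 and 7. In those fits 4.08% to 4.97% of all genes were higher and 4.66% to 5.49% lower.

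**Figure D1:**
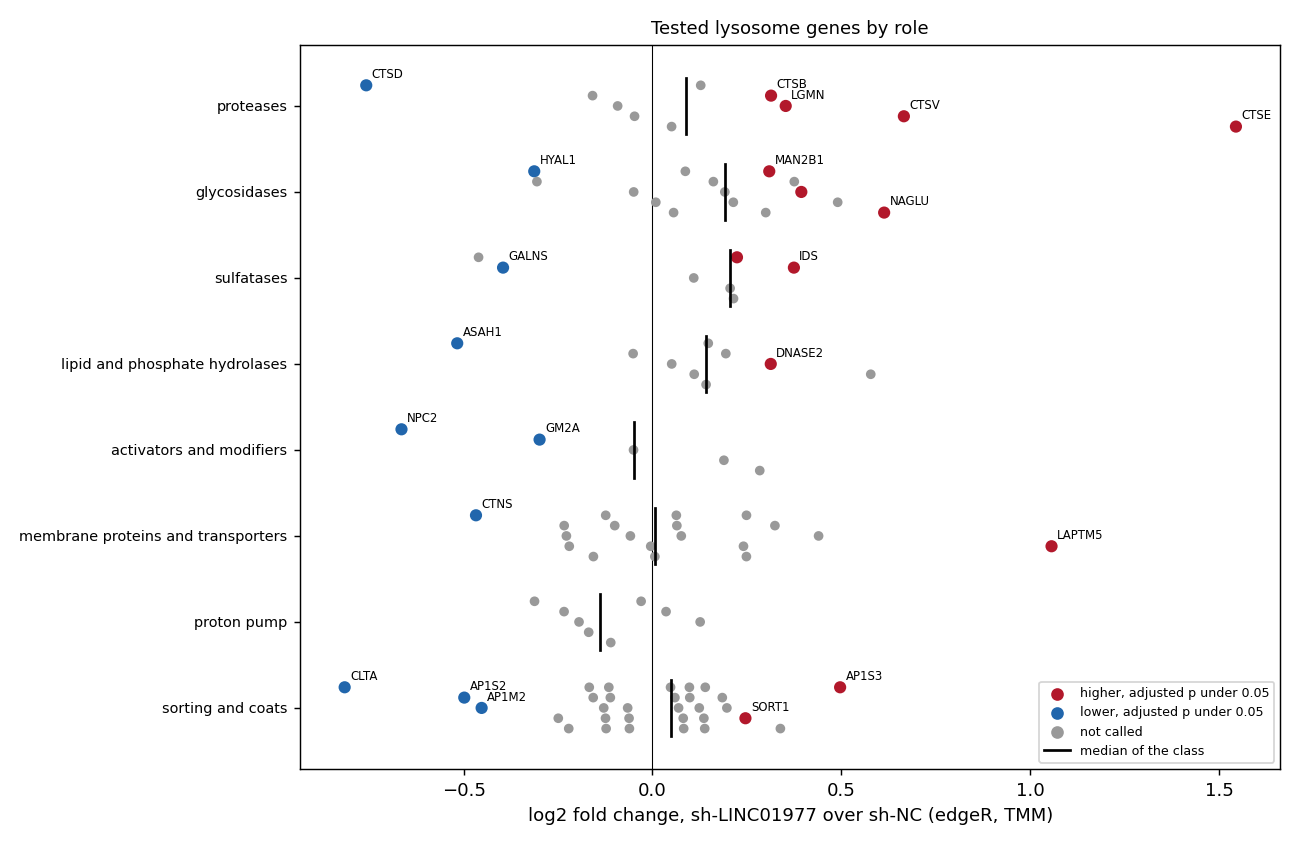
Each point is 1 of the tested lysosome genes, placed by its log2 fold change (sh-LINC01977 over sh-NC, edgeR with TMM factors) in the row of its role class; red genes were higher and blue genes lower at an adjusted p under 0.05, grey genes were not called and the black bar is the class median. The 13 red genes lie mostly in the 4 hydrolase rows, CTSE and LAPTM5 stand furthest right, and the proton pump row holds no coloured point.

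The hydrolases carried most of the higher genes. Of 50 hydrolases listed, 41 were tested, with a median log2 fold change of 0.15 and 30 of 41 above 0. Of the 41, 10 rose (24.4%, against 7.05% of all genes) and 4 fell (9.76%, against 8.07%). These shares of all genes also stand beside the counts called in each class and list below. Of the 64 tested lysosome genes that are not hydrolases, 3 rose (4.69%) and 6 fell (9.38%), with a median of -0.040. Groups did not overlap upward in 18 of the 41 hydrolases (43.9%) and downward in 6 (14.6%), against 9 and 13 of the other 64. Over all genes these shares were 18.8% upward and 18.3% downward. Without sh-NC replicate 3 the counts called were 3 higher and 4 lower, where 4.97% of all genes were higher and 5.42% lower. With library totals 17 hydrolases were higher and 4 lower, in a setting where 10.8% of all genes were higher and 5.71% lower. Whether hydrolases differed from the other classes was not tested.

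**Figure D2:**
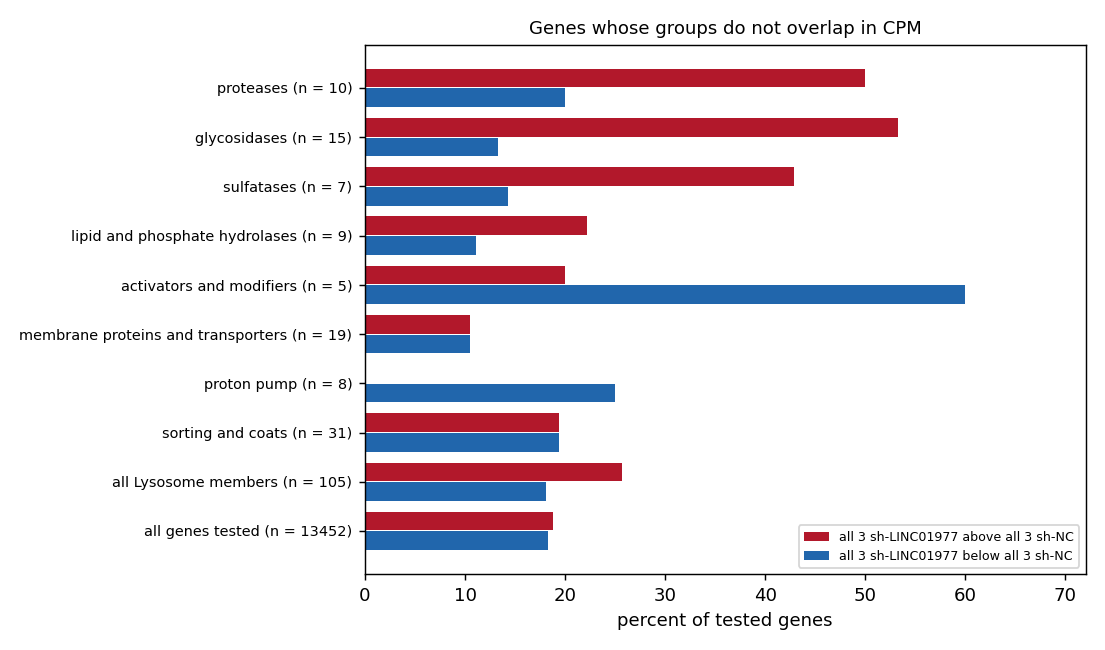
Bars give the percent of tested genes in each role class in which all 3 sh-LINC01977 libraries lay above (red) or below (blue) all 3 sh-NC libraries in CPM, with the number tested in brackets and all tested genes in the last row. The red bar is longer than the blue one in each of the 4 hydrolase classes, while the proton pump has no red bar and the activators, with 5 genes, have the longest blue bar at 60%.

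Proteases showed the widest spread of any class. Of 16 listed, 10 were tested, 4 rose and 1 fell. CTSE encodes cathepsin E, an aspartic protease of endosomes known from the stomach lining and from immune cells (chr1:206009264-206023909, minus strand, positions as deposited on hg38). Its normalised read counts, scaled to library size (CPM), were 6.10, 4.82 and 5.66 in sh-NC and 17.0, 15.3 and 16.0 in sh-LINC01977. Every knockdown library was thus far above every control, a 2.92-fold difference (log2 fold change 1.54, SE 0.12, adjusted p = 0.00106), although on the FPKM scale the gene remained one of the lower cathepsins, at 1.78, 1.42 and 1.69 in sh-NC and 5.28, 4.69 and 5.03 in sh-LINC01977. CTSV encodes cathepsin V, a cysteine protease closely related to cathepsin L (chr9:97029679-97039643). It measured 9.60, 12.9 and 10.7 CPM in sh-NC and 17.3, 20.0 and 15.4 CPM in sh-LINC01977, without overlap (log2 fold change 0.67, SE 0.15, adjusted p = 0.0298). CTSV was called in 2 of the 6 fits that left out 1 library. Its relative CTSL did not follow, at 58.3, 62.0 and 57.9 CPM against 61.3, 60.0 and 63.4, with overlapping groups (log2 fold change 0.05, 95% interval -0.06 to 0.16).

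LGMN encodes legumain, which cuts after asparagine and processes cathepsins. It rose from 60.4, 57.5 and 56.6 CPM to 73.2, 73.4 and 76.4 CPM, and the libraries within a group differed little (log2 fold change 0.35, SE 0.053, adjusted p = 0.00773). CTSB, encoding cathepsin B, was the most abundant protease by FPKM averaged over all 6 libraries (41.8 in sh-NC, 54.4 in sh-LINC01977). Its counts were 426, 345 and 405 CPM in sh-NC and 496, 493 and 472 CPM in sh-LINC01977, so the groups stood apart although sh-NC replicate 2 was low (log2 fold change 0.31, SE 0.080, adjusted p = 0.0437). CTSD, the main lysosomal aspartic protease and of the same class as CTSE, went the other way (chr11:1752752-1764573, minus strand). It measured 185, 178 and 124 CPM in sh-NC and 112, 101 and 75.3 CPM in sh-LINC01977. The groups did not overlap, but replicate 3 was the lowest library of each group and the gap between 124 and 112 was small beside the spread within groups (log2 fold change -0.76, SE 0.20, adjusted p = 0.0461). When single libraries were left out, CTSB was called in 2 of the 6 edgeR fits, with an adjusted p of up to 0.118. CTSD was called in 1 of the 6, with an adjusted p of up to 0.127. The 5 proteases not called had log2 fold changes from -0.16 (CTSA) to 0.13 (CTSC), both singled out here after their values were seen.

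Glycosidases, which strip sugars from glycoproteins, glycolipids and glycosaminoglycans, leaned upward, with 15 of 17 tested, 3 that rose, 1 that fell and a median log2 fold change of 0.19. NAGLU, an enzyme of heparan sulfate breakdown, measured 25.2, 33.2 and 23.7 CPM in sh-NC and 46.2, 35.3 and 44.1 CPM in sh-LINC01977. The highest control and the lowest knockdown library were close to each other (log2 fold change 0.61, SE 0.16, adjusted p = 0.0464). MAN2B1, an alpha-mannosidase, rose from 73.7, 71.7 and 73.9 CPM to 87.5, 93.1 and 91.1 CPM (log2 fold change 0.31, SE 0.050, adjusted p = 0.00939). It overlaps AC010422.3, listed at 16.0 FPKM on the same strand, by 1887 bases. HYAL1, a hyaluronidase, was the glycosidase that fell, from 78.2, 77.0 and 75.6 CPM to 63.4, 61.3 and 61.0 CPM (log2 fold change -0.31, SE 0.049, adjusted p = 0.00863). Spread within groups was narrow for both genes.

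NEU1, the lysosomal sialidase and the most abundant glycosidase by FPKM averaged over all 6 libraries (28.5 in sh-NC, 24.1 in sh-LINC01977), lay just outside the threshold. Its CPM was 169, 156 and 194 in sh-NC and 139, 138 and 143 in sh-LINC01977, without overlap (log2 fold change -0.31, SE 0.081, adjusted p = 0.0501). HEXA, the alpha subunit of hexosaminidase A, was 114, 128 and 127 CPM in sh-NC and 142, 137 and 142 CPM in sh-LINC01977 and did not pass (log2 fold change 0.19, 95% interval 0.08 to 0.31, adjusted p = 0.0784). Groups did not overlap upward in 8 of the 15 tested glycosidases (53.3%, against 18.8% of all genes) and downward in 2 (13.3%, against 18.3%). Of the 11 glycosidases not called, 5 lay wholly above the controls, GAA among them. GAA was chosen after its values were seen, and its promoter word is shown above (log2 fold change 0.38, adjusted p = 0.0584). The summed glycosidase level was 190 to 195 FPKM in sh-NC and 211 to 225 FPKM in sh-LINC01977.

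All 7 sulfatases were tested, 2 rose and 1 fell. IDS, iduronate sulfatase, the enzyme lacking in Hunter disease, measured 43.6, 37.6 and 40.0 CPM in sh-NC and 52.1, 53.2 and 51.9 CPM in sh-LINC01977 (log2 fold change 0.37, SE 0.069, adjusted p = 0.0147). GALNS, which acts on keratan sulfate, fell from 20.7, 19.1 and 18.3 CPM to 14.0, 15.2 and 15.0 CPM (log2 fold change -0.40, SE 0.086, adjusted p = 0.0269). IDS was called in 4 of the 6 fits that left out 1 library, and GALNS in 1. GALNS overlaps TRAPPC2L on the opposite strand by 751 bases, and TRAPPC2L was listed at a higher level (8.66 against 1.63 FPKM). Summed sulfatase levels were 44.3 to 45.9 FPKM in sh-NC and 51.6 to 53.0 FPKM in sh-LINC01977, without overlap.

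Of 10 lipid and phosphate hydrolases 9 were tested, 1 rose and 1 fell. DNASE2, the acid nuclease that digests DNA in lysosomes, rose from 34.7, 32.0 and 32.8 CPM to 40.8, 42.2 and 40.6 CPM (log2 fold change 0.31, SE 0.060, adjusted p = 0.0167). ASAH1, acid ceramidase, fell from 73.5, 78.1 and 67.0 CPM to 58.7, 50.0 and 44.0 CPM (chr8:18055992-18084998, log2 fold change -0.52, SE 0.12, adjusted p = 0.0293). The 3 knockdown libraries of ASAH1 differed among themselves by more than the controls did. DNASE2 and ASAH1 were each called in 2 of the 6 fits that left out 1 library. LIPA, the acid lipase that frees cholesterol from lipoproteins, overlapped between groups at 85.5, 80.0 and 96.4 CPM against 91.3, 100 and 97.3 CPM (log2 fold change 0.14, 95% interval -0.02 to 0.30).

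**Figure D3:**
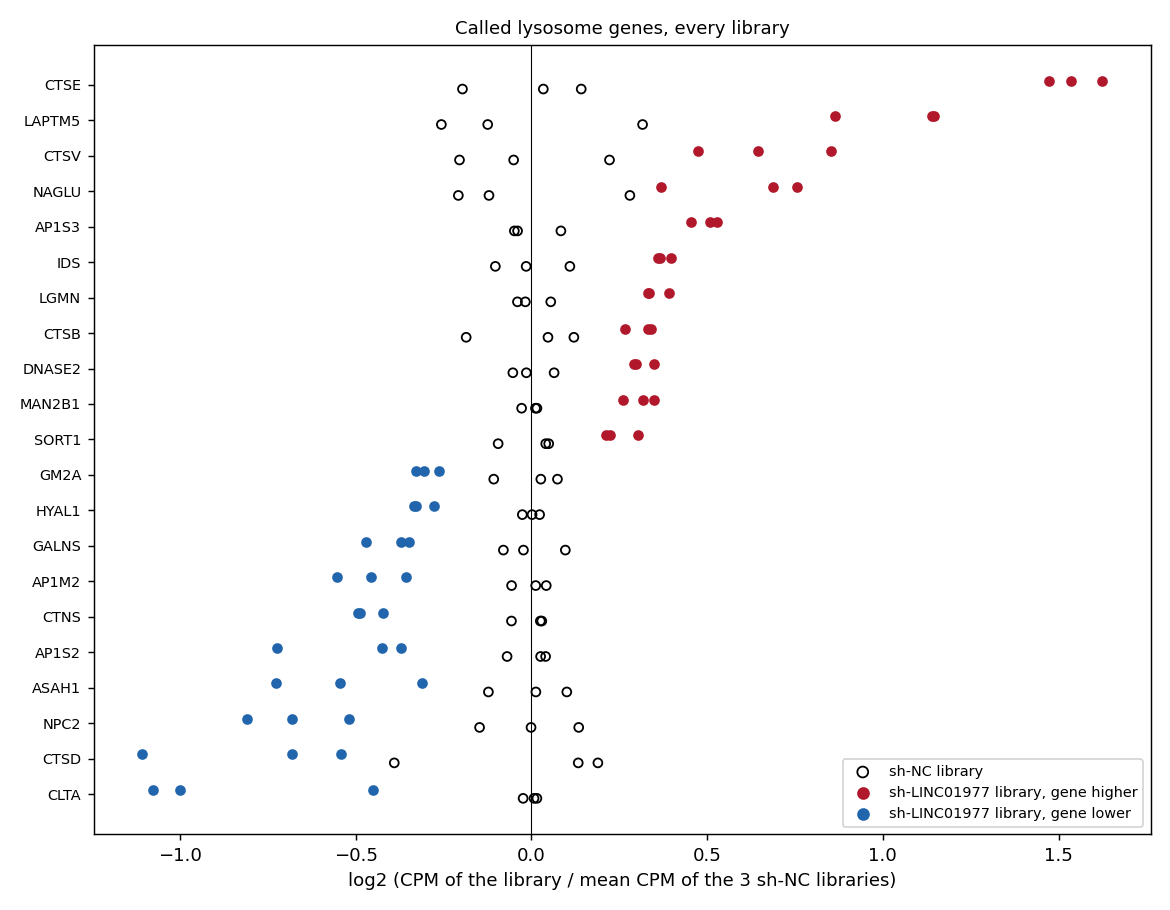
Points give, for 21 of the 23 called lysosome genes, the log2 ratio of the CPM in each library to the mean CPM of the 3 sh-NC libraries, with open circles for sh-NC and filled circles for sh-LINC01977 (red for genes that were higher, blue for genes that were lower). Filled and open circles do not overlap for any of these 21 genes, CTSE lies furthest right, and CLTA and CTSD have the widest spread among the knockdown libraries.

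The activators and modifiers, small proteins that present lipids to the hydrolases or modify the enzymes, had 6 members, of which 5 were tested, 2 fell and 0 rose. NPC2, the soluble protein that hands cholesterol from the lumen to NPC1, measured 77.5, 63.7 and 70.5 CPM in sh-NC and 49.3, 44.0 and 40.3 CPM in sh-LINC01977 (chr14:74476192-74494177, minus strand). That was a fall to 0.631 of the control level, well beyond the spread of either group (log2 fold change -0.66, SE 0.10, adjusted p = 0.00842). NPC1, its membrane partner, did not move with it, at 88.8, 84.0 and 100 CPM against 88.9, 81.3 and 92.0 CPM (log2 fold change -0.06, 95% interval -0.22 to 0.11). GM2A, the activator that lifts GM2 ganglioside to hexosaminidase A, fell from 79.4, 70.0 and 76.9 CPM to 60.1, 62.9 and 61.0 CPM (log2 fold change -0.30, SE 0.064, adjusted p = 0.0244). GM2A overlaps CCDC69, on the opposite strand at 5.24 FPKM, by 11996 bases. Its call was kept in 1 of the 6 fits that left out 1 library. PSAP, the precursor of the saposins that help break down sphingolipids, had the highest level of all lysosome genes (mean 187 FPKM) and was near level, at 768, 748 and 761 CPM against 748, 719 and 733 CPM (log2 fold change -0.05, 95% interval -0.12 to 0.02).

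The membrane proteins, which form the wall of the lysosome and export its products, held 19 tested genes of 21, of which 1 rose and 1 fell. Of the 19, 10 had log2 fold changes above 0 and 9 below, with a median of 0.01. LAPTM5 is a lysosomal membrane protein known mainly from blood cells (chr1:30732469-30757820, minus strand). It measured 4.08, 5.53 and 3.72 CPM in sh-NC and 9.83, 9.79 and 8.08 CPM in sh-LINC01977. The gene was low in every library, and the groups did not overlap (2.08-fold higher, log2 fold change 1.06, SE 0.18, adjusted p = 0.0124). Markers of macrophages other than LYZ (PTPRC, CD14, CSF1R, CD163, ITGAM, MRC1) summed to 0.614 to 1.33 FPKM in sh-NC and 0.689 to 0.865 FPKM in sh-LINC01977, with PTPRC, CSF1R, CD163, ITGAM and MRC1 each at a mean under 0.01 FPKM. LYZ, also a macrophage marker, was at 618 and 536 FPKM on average and fell. CTNS, the cystine exporter lacking in cystinosis, fell from 24.3, 25.7 and 25.8 CPM to 18.8, 18.0 and 17.9 CPM (chr17:3636468-3661542, plus strand, log2 fold change -0.47, SE 0.070, adjusted p = 0.00769).

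The defining wall proteins were among those not called. LAMP1 was 266, 274 and 285 CPM in sh-NC and 283, 274 and 305 CPM in sh-LINC01977 (log2 fold change 0.06, 95% interval -0.04 to 0.17). LAMP2 was 192, 181 and 205 CPM against 179, 178 and 183 CPM (log2 fold change -0.10, 95% interval -0.21 to 0.01). CD63, a tetraspanin of late endosomes, was 253, 241 and 219 CPM against 270, 224 and 252 CPM (log2 fold change 0.06, 95% interval -0.10 to 0.23). Groups overlapped for all 3 of these genes. MCOLN1, the lysosomal calcium channel, held 2 copies of the promoter word and measured 10.8, 9.63 and 10.3 CPM against 9.36, 6.69 and 10.2 CPM, with 1 low knockdown library and a wide interval (log2 fold change -0.23, 95% interval -0.57 to 0.10). LAPTM4A, a transmembrane protein and the most abundant of the class by FPKM (147 in sh-NC, 162 in sh-LINC01977), was 358, 351 and 372 CPM against 371, 393 and 377 CPM (log2 fold change 0.08, adjusted p = 0.277).

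**Figure D4:**
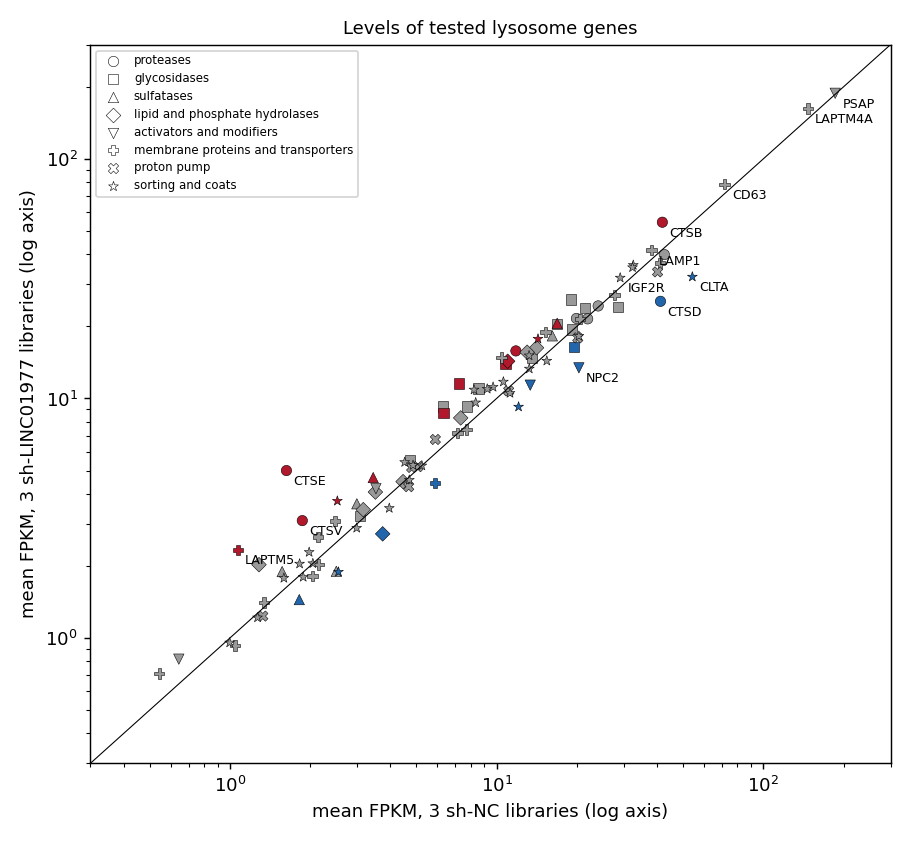
Each symbol is 1 tested lysosome gene, with its mean FPKM in sh-NC on the horizontal and in sh-LINC01977 on the vertical axis, both logarithmic, its shape giving the role class and its colour the call (red higher, blue lower, grey not called). PSAP is highest at a mean of 187 FPKM, most genes lie near the line of equality, and CTSE and LAPTM5 lie above it at the low end while NPC2, CTSD and CLTA lie below it.

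By FPKM the tested lysosome genes ran from 0.531 to 187, with a median of 8.98 against 4.14 over all tested genes, and 70 of the 105 (66.7%) lay above that median. Summed over all 120 genes the level was 1569 to 1599 FPKM in sh-NC and 1594 to 1668 FPKM in sh-LINC01977, with overlapping groups. As a share of all counted reads lysosome genes made up 0.906% to 0.930% in sh-NC and 0.954% to 0.984% in sh-LINC01977, and on that scale, library totals, the median log2 fold change over all tested genes was also above 0, at 0.065.

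No proton pump gene of the pathway was called in either direction by edgeR, where 15.1% of all genes were called. With 8 genes tested, 0 calls cannot be set apart from that share. Of 10 subunit genes 8 were tested, 6 had log2 fold changes below 0, the median was -0.14, and 1 had an unadjusted p under 0.05, while DESeq2 and both limma fits also called 0. ATP6V0C, the ring subunit that carries protons, measured 48.0, 89.4 and 89.4 CPM in sh-NC and 94.9, 40.9 and 46.8 CPM in sh-LINC01977. The values fell at high and low levels within each group, so the difference could not be resolved (log2 fold change -0.31, SE 0.38, 95% interval -1.05 to 0.43). ATP6AP1, an accessory subunit needed for assembly, was lower in every knockdown library, at 130, 124 and 119 CPM against 111, 111 and 94.4 CPM, and did not pass (log2 fold change -0.23, SE 0.078, adjusted p = 0.0944). Without sh-NC replicate 1 ATP6V0D1, which holds the promoter word, was called as higher.

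Other V-ATPase subunits that the pathway row did not list were examined as a separate list of 12 tested genes. Of these, 2 rose (16.7%, against 7.05% of all genes) and 1 fell (8.33%, against 8.07%). ATP6V1C2, a subunit form with restricted tissue expression, measured 4.98, 2.84 and 2.48 CPM in sh-NC and 10.3, 13.6 and 13.2 CPM in sh-LINC01977 (log2 fold change 1.85, SE 0.28, adjusted p = 0.00821). ATP6V1A, the catalytic subunit of the cytosolic part, measured 82.7, 80.7 and 85.6 CPM against 94.6, 93.0 and 95.8 CPM (log2 fold change 0.19, SE 0.048, adjusted p = 0.0464), a call that was lost whenever 1 library was left out (adjusted p 0.0635 to 0.131). ATP6V0E2, an alternative small membrane subunit, fell from 19.1, 17.1 and 19.3 CPM to 9.47, 9.07 and 10.1 CPM (log2 fold change -0.96, SE 0.095, adjusted p = 0.00188). Groups stood apart for all 3. ATP6V1C2 (1.90 FPKM) overlaps PDIA6, listed at 184 FPKM on the opposite strand, by 1720 bases. Reads of ATP6V1C2 there cannot be told apart from those of PDIA6 if strand was not used.

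Sorting and coat genes were the largest class, with 31 of 32 tested. Of these, 2 rose (6.45%, against 7.05% of all genes) and 3 fell (9.68%, against 8.07%), so the class lay near the shares of all genes. Apart from CLTA, the called genes were the receptor SORT1 and alternative forms of subunits of the AP-1 adaptor, which gathers cargo at the Golgi. AP1S3, a small AP-1 subunit, rose from 14.5, 13.3 and 13.3 CPM to 19.8, 19.5 and 18.8 CPM (log2 fold change 0.50, SE 0.081, adjusted p = 0.00984). AP1S2, another form of the same small subunit, fell from 17.6, 16.5 and 17.8 CPM to 10.5, 13.4 and 12.9 CPM (log2 fold change -0.50, SE 0.12, adjusted p = 0.0326), but it was called in 0 of the 6 fits that left out 1 library. The third form, AP1S1, had overlapping groups at 62.0, 61.9 and 65.5 CPM against 63.7, 71.7 and 65.1 CPM (log2 fold change 0.08, adjusted p = 0.436). AP1S1 was named after its values were seen and was the most abundant of the 3 by FPKM (32.6 in sh-NC). AP1M2, the medium subunit of epithelial cells, fell from 34.7, 32.4 and 34.0 CPM to 23.0, 26.4 and 24.6 CPM (log2 fold change -0.45, SE 0.076, adjusted p = 0.0109).

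CLTA, a clathrin light chain, had the lowest fold change of all tested lysosome genes (chr9:36190856-36304781, plus strand). It measured 173, 174 and 169 CPM in sh-NC and 126, 85.9 and 81.5 CPM in sh-LINC01977. The controls were tight and knockdown replicate 1 lay between them and the other two (log2 fold change -0.81, SE 0.16, adjusted p = 0.0188). The call was kept in 1 of the 6 fits that left out 1 library. As deposited, CLTA overlaps GNE, on the opposite strand at 6.40 FPKM, by 62616 bases. SORT1, the sortilin receptor, rose from 171, 155 and 170 CPM to 191, 203 and 193 CPM (log2 fold change 0.25, SE 0.056, adjusted p = 0.0306). It was called in 0 of the 6 fits that left out 1 library.

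The genes of the mannose 6-phosphate route were not called. IGF2R, the large mannose 6-phosphate receptor, held 3 copies of the promoter word and measured 556, 526 and 555 CPM in sh-NC and 568, 573 and 577 CPM in sh-LINC01977 (log2 fold change 0.07, 95% interval -0.0040 to 0.14, adjusted p = 0.263). M6PR, the small receptor, measured 57.0, 67.7 and 64.4 CPM against 69.9, 58.3 and 77.8 CPM (log2 fold change 0.12, 95% interval -0.11 to 0.36). GNPTAB, the enzyme that begins the tag, measured 52.7, 54.9 and 56.8 CPM against 58.9, 66.2 and 63.5 CPM, wholly above the controls but short of the threshold (log2 fold change 0.20, SE 0.065, adjusted p = 0.0934).

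Regulators and neighbours of the lysosome were examined as 5 further lists outside the pathway, in which 11 of 74 tested genes were called (14.9%, against 15.1% of all genes). TFEB was 11.6, 10.8 and 11.5 CPM in sh-NC and 10.5, 11.9 and 10.8 CPM in sh-LINC01977, and TFE3 was 62.9, 64.3 and 70.1 CPM against 60.0, 62.4 and 61.9 CPM, and neither was called (log2 fold changes -0.03 and -0.10, adjusted p = 0.869 and 0.326, edgeR). The sign for TFEB turned with library totals and in limma. Of 18 tested genes of mTORC1 and its scaffold on the lysosome, 0 rose and 1 fell, which was FLCN, the folliculin of the Rag GTPase circuit, at 38.1, 34.4 and 33.9 CPM against 24.5, 25.1 and 28.3 CPM (log2 fold change -0.45, SE 0.086, adjusted p = 0.0166), a call kept in 3 of the 6 fits that left out 1 library. Of 19 other lysosomal proteins 4 rose and 2 fell. Of these, SIAE, a sialate esterase, rose from 17.6, 18.2 and 20.1 CPM to 33.1, 32.0 and 32.8 CPM (log2 fold change 0.80, SE 0.076, adjusted p = 0.00165). CPVL, a serine carboxypeptidase, rose from 78.0, 73.2 and 75.5 CPM to 110, 115 and 110 CPM (log2 fold change 0.56, SE 0.051, adjusted p = 0.00147). SLC36A1, a proton-coupled amino acid exporter, fell from 28.6, 26.8 and 23.3 CPM to 17.0, 14.9 and 16.7 CPM (log2 fold change -0.69, SE 0.10, adjusted p = 0.00769). PCYOX1, prenylcysteine oxidase, fell from 176, 177 and 181 CPM to 141, 142 and 144 CPM (log2 fold change -0.32, SE 0.040, adjusted p = 0.00401). In all 4 the libraries of each group lay close together. SIAE (2.57 FPKM) overlaps TBRG1 (3.07 FPKM) and SPA17 (1.90 FPKM), both on the opposite strand. On the opposite strand CPVL (22.8 FPKM) also overlaps CHN2 (2.20 FPKM), and FLCN (2.53 FPKM) overlaps MPRIP (2.42 FPKM).

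Among 16 genes of late endosome tethering and retromer, which move and fuse these organelles, 2 rose and 1 fell. BORCS5, which couples lysosomes to kinesin, rose from 9.64, 9.69 and 9.16 CPM to 16.7, 14.3 and 15.0 CPM (log2 fold change 0.69, SE 0.097, adjusted p = 0.0062). VPS39, a subunit of the HOPS tether, fell from 64.6, 64.5 and 57.9 CPM to 42.9, 44.9 and 30.4 CPM (log2 fold change -0.66, SE 0.15, adjusted p = 0.0296), and the call was kept in 2 of the 6 fits that left out 1 library. Of 19 autophagy genes 1 rose and 0 fell. That gene was NBR1, a receptor that brings ubiquitin-tagged cargo to autophagosomes, at 150, 147 and 155 CPM against 196, 197 and 194 CPM (log2 fold change 0.38, SE 0.041, adjusted p = 0.00248).

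**Figure D5:**
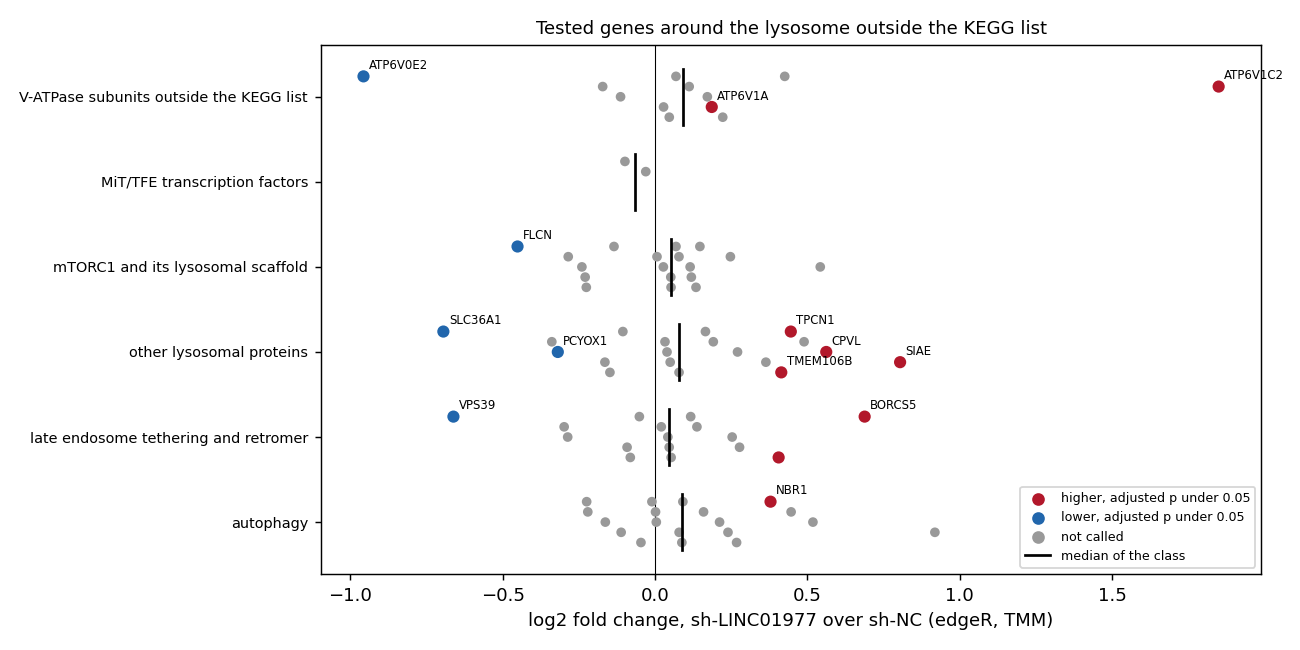
Points give the log2 fold change (sh-LINC01977 over sh-NC, edgeR with TMM factors) of tested genes in 6 lists around the lysosome that the pathway row did not name, coloured red for higher, blue for lower and grey for not called at an adjusted p of 0.05, with the list median as a black bar. ATP6V1C2 lies furthest right and ATP6V0E2 furthest left, both in the V-ATPase row, and the row of MiT/TFE factors holds only the uncalled TFEB and TFE3.

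The 15 lysosome genes below the level filter were SLC11A1, GALC, LAMP3, CTSZ, ACP5, AP3B2, ATP6V0A4, IDUA, NAPSA, CTSK, ATP6V0D2, CTSS, CTSW, PSAPL1 and CTSO, and none was called when all 29153 genes were tested. Their counts ran from 0 to 116 reads in a library. GALC, the galactosylceramidase lacking in Krabbe disease, was counted 0, 8 and 0 times in sh-NC and 0 times in all 3 sh-LINC01977 libraries, and a difference was not detectable at this depth. One further row, AC138894.1, was tested without a call and belongs to no role class.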

How the data were processed

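RNA of HepG2 cells was sequenced by the authors on an Illumina instrument. The submitters' processing notes name hg38, bcl2fastq 2.0, HISAT2, StringTie, DESeq2 and limma without roles, and strand use in counting is not given in the sources used here. The authors deposited 1 table with a whole-number read count and an FPKM value per gene and library, KEGG terms, and columns of their own comparison (fold changes and p-values), which were not used. All 120 lysosome genes were in GENCODE 29, 113 with identical positions.

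Counts of genes whose FPKM averaged 0.5 or more over all libraries were TMM-normalised and tested with edgeR 4.0.16 (quasi-likelihood, no covariate, R 4.3.3), with Benjamini-Hochberg adjustment over all tested genes. Tested on simulated data in which few genes changed, this test recovered no gene changed by 0.5 on the log2 scale and most genes changed by 1 or 2; the larger sizes were added after the first had failed, and estimates were close to the simulated size throughout. CPM values are TMM-normalised. With 3 libraries per group an exact two-sided permutation test cannot go below 0.1. Alternatives used DESeq2 1.42.0, limma 3.58.1 on log2(FPKM + 0.1) or log2(FPKM + 1), other scalings and filters, a replicate block and 1 library left out. Depth was 49929024 to 60441515 reads per library.

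Lysosome genes, role classes and lists were chosen with earlier results of these data known. Genes were named if among the 3 largest called changes of their class and direction, highest in FPKM in their class, past the thresholds of the study, or in a list of 19 well-known genes, and outside the pathway if among the 2 largest called changes of a list in each direction. A few genes that this rule names are not reported here.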

Additional observations from a re-analysis of the deposited data

How the results depend on the processing

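Counts of lysosome genes called at an adjusted p under 0.05 depended on the settings more than directions did. The 13 higher genes became 24 with library totals, 8 with no filter on low values and 5 to 11 with 1 library left out (5 without sh-NC replicate 3, and 7, 6 and 8 without sh-LINC01977 replicates 1, 2 and 3). The 10 lower genes became 6 in limma on log2(FPKM + 0.1), 6 in limma on log2(FPKM + 1) and 4 to 7 with 1 library left out (4 without sh-NC replicate 1, 6 without sh-NC replicate 2, and 4 without sh-LINC01977 replicate 2 or 3). The median log2 fold change of 0.060 became 0.125 with library totals, 0.126 and 0.110 in the 2 limma fits, and 0.025 to 0.082 with 1 library left out. Fewer libraries and, without the filter, more genes tested are part of those settings; the cause of the other shifts was not tested. In the same 3 scalings the median of all genes was 0.065, 0.063 and 0.049. None of the 23 called genes changed direction in any of 14 alternatives, and 9 were called in all of them (CTSE, LGMN, MAN2B1, HYAL1, NPC2, LAPTM5, CTNS, AP1S3 and AP1M2). SORT1 and AP1S2 were called in 0 of the 6 fits that left out 1 library. CLTA, CTSD, GALNS and GM2A were called in 1 of the 6, and NAGLU, CTSV, CTSB, DNASE2 and ASAH1 in 2. DESeq2 called 19 higher and 13 lower, where 10.1% of all genes were higher and 11% lower. The shares of all genes higher and lower were 10.8% and 5.71% with library totals, and 2.44% and 2.92% with no filter. In limma they were 9.43% and 5.42% on log2(FPKM + 0.1), and 9.55% and 5.46% on log2(FPKM + 1). With 1 library left out, 4.08% to 4.97% of all genes were higher and 4.66% to 5.49% lower.

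Among the genes recomputed one by one, signs turned for 3, none of which was called in any setting. The log2 fold change of PSAP was 0.016 with library totals and 0.014 in both limma fits. That of NPC1 was 0.0076 with library totals, 0.0082 and 0.0072 in the limma fits, and from -0.11 to 0.019 with 1 library left out, positive without sh-NC replicate 3. That of TFEB was 0.036 with library totals, 0.033 and 0.022 in the limma fits, and from -0.086 to 0.0078 with 1 library left out, positive without sh-LINC01977 replicate 1.

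Both groups share the replicate numbers 1 to 3, and the labels do not say whether same-numbered samples were handled together. Deviations of same-numbered libraries correlated at -0.029, 0.017 and 0.055, and those of differently numbered libraries at -0.070 to 0.053. These values cannot settle whether the samples were paired. With a replicate block 9 lysosome genes were higher and 7 lower, with a median of 0.062. In that fit 4.73% of all genes were higher and 5.61% lower.

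Of the 23 called genes 15 changed by less than 0.5 on the log2 scale, so some changes below that size were called here. The simulated data, in which no gene changed by 0.5 was recovered, held fewer changed genes than the 2033 called here. Their adjustment was therefore stricter, and that result does not carry over directly. Lysosome genes with changes of that size may still have been missed, and an absent call does not show an absent change. Of the 23, 12 overlap another listed gene, 7 of them one at a mean FPKM of at least 0.5 (CLTA, CTNS, CTSB, GALNS, GM2A, MAN2B1 and NPC2).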

Other observations

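Levels of 14 tested lysosome genes differed by more than 1.5 times between libraries of the same group, and 1 of them, CLTA, was called. PLA2G15, a lysosomal phospholipase, had 1 low library in each group, at 21.7, 23.7 and 8.41 CPM in sh-NC and 7.85, 24.1 and 23.7 CPM in sh-LINC01977. CD164, a sialomucin, was at 182, 102 and 111 CPM in sh-NC and 115, 187 and 167 CPM in sh-LINC01977. ATP6V0C spanned 1.86 times in sh-NC and 2.32 times in sh-LINC01977. HGSNAT, an enzyme of heparan sulfate breakdown in the lysosomal membrane, ran from 8.74 to 23.6 CPM in sh-NC and from 8.56 to 19.2 CPM in sh-LINC01977. SCARB2, a membrane protein also called LIMP-2, ran from 36.3 to 63.6 CPM in sh-NC and from 34.3 to 89.0 CPM in sh-LINC01977. These genes were picked for their spread, and its cause was not tested.

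Counts and FPKM put some genes at different places. Tested lysosome genes had a median of 6.33 CPM per FPKM, but SCARB2 had 23.9 and ASAH1 19.2. The FPKM of ASAH1 was 3.72, 4.03 and 3.47 in sh-NC and 3.14, 2.64 and 2.39 in sh-LINC01977, so the groups stood apart on that scale as well.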
